A study of Mus musculus with 16 samples.

Results

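The genes described here are the 650 genes of mouse chromosome 17 (MMU17) that follow the extra segment of the Ts65Dn mouse, out of 13807 genes measured in the cerebellum at postnatal day 6. Ts65Dn mice carry a small extra chromosome that joins the centromeric end of MMU17 to the distal part of MMU16, so the first genes of MMU17 are trisomic and the rest of the chromosome is disomic. TcMAC21 mice carry a nearly whole human 21q as a mouse artificial chromosome, which also expresses GFP, and their own MMU17 is disomic along its whole length. RNA of whole cerebella was measured in 4 Ts65Dn pups and 4 euploid littermates (C57BL/6J x C3H/HeJ background), and in 4 TcMAC21 pups and 4 euploid littermates (C57BL/6J x DBA/2J background). Trisomic pups and euploid littermates were collected as pairs, several of them from the same litter. The labels give no sex.

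MMU17 past the extra segment is gene-dense. It holds the mouse major histocompatibility complex (H2), whose class I and class II molecules present peptides to T cells and which differs between inbred strains. It also holds a small block of orthologs of human chromosome 21 genes, among them Cbs, U2af1 and Pknox1. These orthologs keep their normal dose in Ts65Dn, which is a known limit of this model of Down syndrome, whereas TcMAC21 mice carry human copies of chromosome 21 genes in addition to the mouse ones.

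The deposited table names a gene by its chromosome and a number from the transcript assembler, without a symbol, a position or a strand. No gene symbol was paired with a number, so the H2 genes and the human chromosome 21 orthologs could not be picked out, the cerebellar cell types could not be checked by their markers, and no sequence is printed. Of the 703 MMU17 genes listed, 680 averaged 10 or more normalized counts over the 8 animals of the Ts65Dn cross. These were put in order of their number, which is taken as the order along the chromosome, although the study does not say so. The first 30 were left out as the extra segment. Where that segment ends was chosen by the ratios of Ts65Dn to euploid animals themselves, so every Ts65Dn value of the 650 genes is a description, counts of calls stand there beside the share of all mouse genes and support nothing, and the TcMAC21 cross, which had no part in the choice, carries the tests. A further 22 MMU17 genes numbered after the segment fell below the minimum and are not members.

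Values are normalized counts, that is, reads of a gene divided by one size factor of the library. The reads could be recovered from them, because in each library 100% of the values were a whole number of steps of 1 read, within 0.006. They ranged from 6317856 to 25719969 on all genes of a library (median 16135420), and from 275107 to 1158892 on the 650 members. A count of 3 reads corresponded to a normalized count of 1.62 to 6.63 among the libraries, below the minimum mean of 10, and these figures cover counting error only. Only in Ts65Dn replicate 4 was a member without reads (1 of the 650). The human chromosome 21 genes summed to between 48003 and 61687 normalized counts in TcMAC21 pups and to at most 338.3 in euploid littermates, so the TcMAC21 labels held. The 6 Y-linked genes summed to between 2093 and 2719 in all 4 TcMAC21 pups but to 7.15 in 1 of their 4 euploid littermates, replicate 4. They were under 10 in 2 of 4 Ts65Dn pups and in 2 of 4 of the euploid littermates of these. The part of sex in the results below was not tested.

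The 650 members spanned the range of a cerebellar transcriptome. Their mean normalized count over all 16 animals ran from 9.70 to 45211, with a median of 405.3 and quartiles at 96.7 and 1043, against a median of 450.9 for the other mouse genes tested in the Ts65Dn cross. There were 170 members above 1000 and 103 below 50. The 10 most abundant members took 24.9% of all normalized counts of the 650. The most abundant one, at position 357 in the order, had a ratio, trisomic over euploid mean, of 0.898 in TcMAC21 and 0.997 in Ts65Dn. Over the 10 these ratios ran from 0.817 to 1.18 in TcMAC21 and from 0.940 to 1.34 in Ts65Dn. The members varied between animals of one group by a median coefficient of variation of 19.6% in TcMAC21, 17.7% in their euploid littermates, 16.3% in Ts65Dn and 19.4% in their euploid littermates. Over all mouse genes tested these medians were 17.6%, 16.6%, 14.9% and 17.5%, so the members varied slightly more in each group. The comparison was not matched for level, and the lower quartile of level was 96.7 in members against 147.8 in the other mouse genes. The spread was widest in the 163 members of the lowest level (9.70 to 96.1), where the median coefficient of variation was 22.9% to 30.4%, and was 12.5% to 16.1% in the 163 of the highest level.

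The end of the extra segment was placed between the following genes. The last 5 genes left out with the segment had Ts65Dn to euploid ratios from 1.20 to 1.84, with a median of 1.62, and for 3 of them all Ts65Dn pups lay above all euploid littermates. The first 5 members had ratios from 0.744 to 1.41, with a median of 1.39. In the order of the identifiers these 5 ratios were 1.15, 0.744, 1.39, 1.41 and 1.39, so 4 of the 5 were above 1. The fifth member had normalized counts of 793.3 ± 62.3 (SD, n = 4) in Ts65Dn and 571.0 ± 54.2 (SD, n = 4) in euploid littermates, and its groups did not overlap (714.5 to 852.0 against 513.2 to 643.6). In TcMAC21, which has no extra copy of MMU17, the ratios of the first 5 members were 0.993, 0.819, 1.35, 1.16 and 0.936 in the same order. The next 15 members had ratios from 0.629 to 1.21, with a median of 0.978, and none of them separated the groups. Since these ratios placed the end of the segment, they are shown without a test, and whether the first members still belong to it was not tested.

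As a set, the members stood slightly higher in both trisomic groups than in their littermates. In the TcMAC21 cross 647 of the 650 members reached a mean of 10 in the 8 animals. Their median difference, TcMAC21 minus euploid, was 0.07 on the scale of log2(normalized count + 1), or 1.05-fold, against 0.00 over the 13415 mouse genes tested, and 394 of the 647 (60.9%) were above 0 against 50.1% of all mouse genes. The pooled standard deviation between animals of the median over members was 0.055, about as large as the difference. The difference was 0.03 with quantile normalization, 0.04 without TcMAC21 replicate 4 and 0.05 without TcMAC21 euploid replicate 2. In the Ts65Dn cross the median difference was 0.10, or 1.07-fold, against 0.01 over the 13426 mouse genes tested, and 414 of the 650 members (63.7%) were above 0 against 51.6% of all mouse genes. The standard deviation between animals was 0.077 there. The difference was 0.06 without Ts65Dn replicate 3 and 0.07 without Ts65Dn euploid replicate 4. A ratio between 0.769 and 1.3 was found for 523 members (80.8%) in TcMAC21, against 86.4% of mouse genes, and for 509 (78.3%) in Ts65Dn, against 77.3%. In TcMAC21 a ratio above 1.3 was found for 13.3% of members against 7.16% of mouse genes, and one under 0.769 for 5.87% against 6.48%. In Ts65Dn these shares were 12.0% against 9.52%, and 9.69% against 13.2%.

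**Figure D1:**
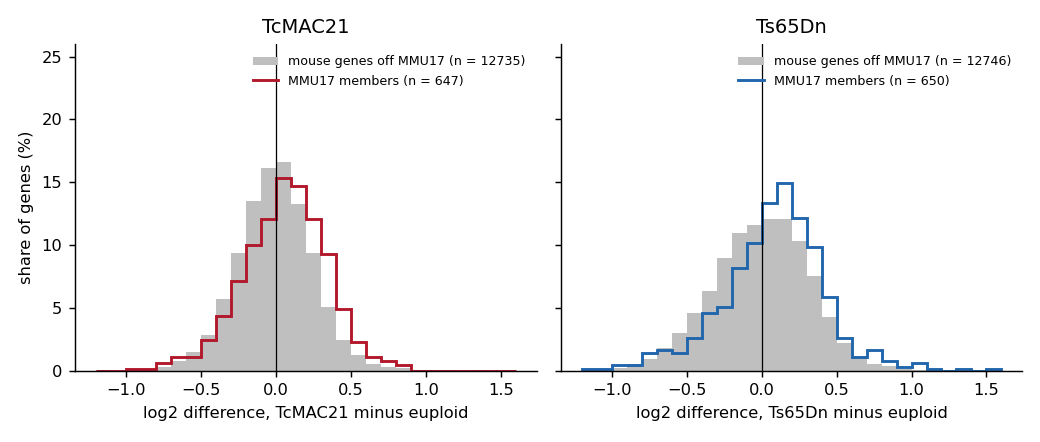
Distribution of the log2 difference between trisomic and euploid animals on the scale of log2(normalized count + 1), in steps of 0.1, as a share of genes, with values beyond the axis placed in the end steps. Coloured lines are the MMU17 members (647 in TcMAC21, 650 in Ts65Dn) and grey areas the mouse genes of the other chromosomes. Both lines lie a little to the right of the grey area, with medians of 0.07 and 0.10.

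The shift was not one of MMU17 alone. Among 20 mouse chromosomes, with the members standing for MMU17, the members had the second highest median in TcMAC21 and the second highest in Ts65Dn. Chromosome 7 was higher in both, at 0.08 and 0.14, and chromosome 11 came next, at 0.05 and 0.08. The X chromosome was the lowest in both, at -0.11 and -0.10. These are medians over genes of one chromosome, and genes are not replicates.

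**Figure D2:**
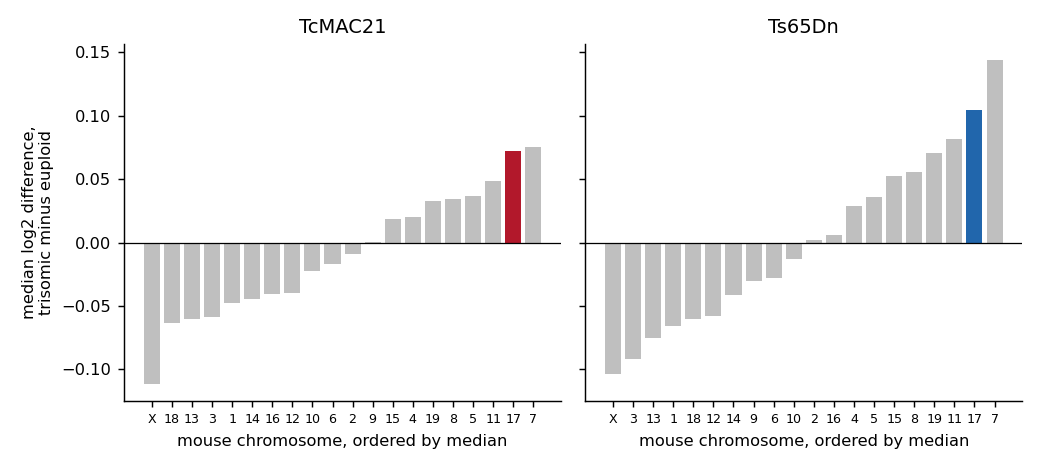
Median log2 difference, trisomic minus euploid, over the genes of each mouse chromosome in the TcMAC21 cross and the Ts65Dn cross, ordered within each panel. The coloured bar is MMU17 without its first 30 genes, at 0.07 and 0.10, next to chromosome 7 at 0.08 and 0.14 in the 2 panels.

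Single animals differed within every group. Each animal was set against the mean log2 values of the 4 euploid animals of its cross. The geometric mean over the 650 members was 1.02, 1.003, 1.04 and 1.11 in TcMAC21 replicates 1 to 4 and 0.975, 0.954, 1.01 and 1.07 in euploid replicates 1 to 4. The ranges of the groups overlapped, and the highest value of each belonged to replicate 4. In the Ts65Dn cross it was 1.03, 1.03, 1.09 and 1.07 in Ts65Dn replicates 1 to 4 and 1.07, 0.992, 0.978 and 0.961 in euploid replicates 1 to 4. There euploid replicate 1 lay within the range of the Ts65Dn pups, while the other 3 euploid animals lay below every Ts65Dn pup. The mean of the 4 animals was 1.04 ± 0.047 (SD, n = 4) in TcMAC21 against 1.001 ± 0.049 (SD, n = 4), and 1.06 ± 0.032 (SD, n = 4) in Ts65Dn against 1.001 ± 0.050 (SD, n = 4). Within pairs of animals with the same replicate number, the TcMAC21 pup was higher in 4 of 4. The mean log2 difference over the members was 0.06, 0.07, 0.05 and 0.06 in pairs 1 to 4. The members' share of all normalized counts, which the abundant members weigh most, was 4.44%, 4.40%, 4.63% and 4.44% in TcMAC21 and 4.26%, 4.18%, 4.36% and 4.28% in their euploid littermates, without overlap. In the Ts65Dn cross it was 4.63%, 4.66%, 4.82% and 4.78% in Ts65Dn and 4.68%, 4.51%, 4.35% and 4.29% in euploid littermates, where euploid replicate 1 lay within the range of the Ts65Dn pups.

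The members moved with the same other chromosomes in nearly every animal, euploid animals included. With the median over all mouse genes subtracted, the members were among the 3 highest of the 20 chromosomes in 10 of 16 animals and among the 2 lowest in 5 of 16. The exception was TcMAC21 replicate 2, at 0.0064. The median of chromosome 7 lay on the same side of 0 as that of the members in 16 of 16 animals, and that of the X chromosome on the opposite side in 15 of 16. In Ts65Dn euploid replicate 1 the members stood at 0.14, chromosome 7 at 0.13 and the X chromosome at -0.24. In Ts65Dn euploid replicate 4 they stood at -0.07, -0.08 and 0.12. These are descriptions of libraries. RNA quality was not given, and its part and that of cell composition, where fewer cells of a type and less RNA per cell cannot be told apart, were not tested.

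Along the chromosome the members did not move evenly. They were divided into 13 runs of 50 consecutive genes. In TcMAC21 the geometric mean ratio of a run was between 0.944, over positions 1 to 50, and 1.10, over positions 301 to 350. It was above 1 in 10 of the 13 runs. In no run did the 4 TcMAC21 pups separate from the 4 euploid littermates, neither upward nor downward. Within pairs of the same replicate number, the TcMAC21 pup was higher in 4 of 4 pairs in 7 of the 13 runs and lower in 4 of 4 in 1 run. In Ts65Dn the ratios were between 0.903, over positions 551 to 600, and 1.23, over positions 301 to 350, and 9 of 13 runs were above 1. The groups were apart in 1 run, the one at positions 551 to 600, where every Ts65Dn pup was lower. Without Ts65Dn euploid replicate 1, the ratios were between 0.891 and 1.33, every Ts65Dn pup was higher in 6 runs and every one was lower in 2.

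The same runs were high in animals of different genotype. Over positions 151 to 200 the geometric mean was 1.11, 1.17, 1.31 and 1.29 in Ts65Dn replicates 1 to 4, and 1.298, 0.991, 0.907 and 0.858 in their euploid littermates. Over the same positions it was 1.03, 1.03, 1.17 and 1.18 in TcMAC21 replicates 1 to 4, and 0.979, 0.892, 1.01 and 1.14 in their euploid littermates. Ts65Dn euploid replicate 1 lay between Ts65Dn replicates 4 and 3 there. Over positions 301 to 350 it was 1.12, 1.16, 1.36 and 1.31 in Ts65Dn, and 1.17, 1.002, 0.957 and 0.895 in their euploid littermates. Over positions 601 to 650, at the far end, it was 0.982, 0.959, 0.929 and 0.909 in Ts65Dn, and 0.952, 0.998, 1.02 and 1.03 in their euploid littermates. The 3 animals of this cross that were highest over positions 151 to 200, Ts65Dn replicates 3 and 4 and euploid replicate 1, were its 3 lowest at this end. The identifiers of a run of 50 members spanned from 454 to 3611 numbers of the assembler, so the runs need not be of like length.

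**Figure D3:**
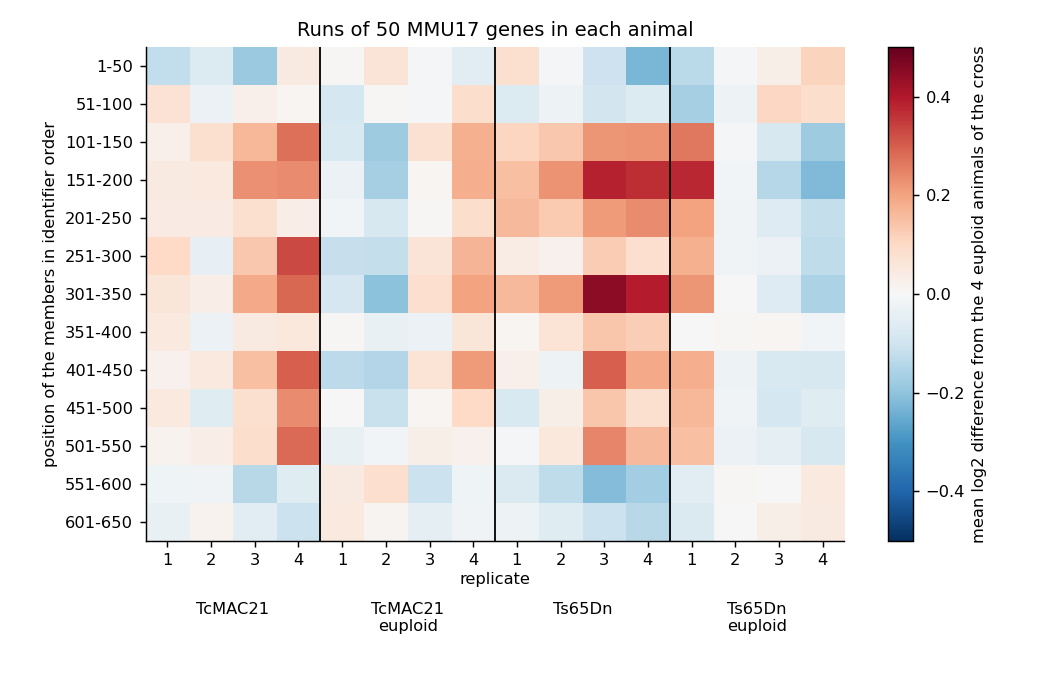
Mean log2 difference of each run of 50 consecutive members (rows, from the end of the extra segment downward) in each of the 16 animals (columns, grouped by genotype), against the mean of the 4 euploid animals of the same cross. Red is higher and blue is lower. Positions 151 to 200 and 301 to 350 are red in all 4 Ts65Dn pups (1.11 to 1.36 as a ratio), and also in Ts65Dn euploid replicate 1, TcMAC21 replicates 3 and 4 and TcMAC21 euploid replicate 4. TcMAC21 replicates 1 and 2 and TcMAC21 euploid replicate 3 are above 1 there by less, at 1.01 to 1.06.

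In TcMAC21, which carries human genes on a separate chromosome, 0 of the 647 members passed an adjusted p of 0.05 (limma, Benjamini-Hochberg over all genes tested), with a lowest adjusted p of 0.138. Of all 13415 mouse genes 0.0149% passed. The adjustment, here and in the fits below, also ran over the human chromosome 21 genes, which had few counts in euploid animals. Their low p-values can lower the adjusted p of mouse genes, and mouse genes were not adjusted alone. At an unadjusted p under 0.05 there were 32 members higher (4.95%) and 15 lower (2.32%), where 2.47% of all mouse genes were higher and 4.10% lower. edgeR on the recovered reads called 0 members, with 49 (7.57%) at an unadjusted p under 0.05, beside 6.50% of mouse genes. With DESeq2, run on the same reads, 2 members passed, 1 higher and 1 lower, against 0.142% of all mouse genes. Every TcMAC21 pup was above every euploid littermate for 21 members (3.25%) and below for 7 (1.08%), against 2.02% and 2.25% of all mouse genes. With quantile normalization these counts were 20 (3.09%) and 12 (1.85%), beside 1.74% and 2.85%. More of the members thus lay on the higher side than among mouse genes at large, in the direction of the shift of the whole set.

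The replicate numbers were taken to pair littermates in this cross, and this block shifted the result. The labels do not state the pairing. It was read from these same values, in which same-numbered animals deviated together, so the blocked p-values by limma are not independent of that choice. With the pair as a block, and with the human genes in the adjustment, 13 of 647 members passed an adjusted p of 0.05 by limma. Of these 8 were higher (1.24% of members, against 0.216% of all mouse genes) and 5 lower (0.773%, against 0.775%). Each of the 13 had the same sign in all 4 pairs. How many of the 13 would pass with mouse genes adjusted alone was not tested. The 8 that rose had ratios from 1.29 to 1.75, blocked adjusted p from 0.0181 to 0.0489 and euploid means from 434.4 to 3120, and the 5 that fell had ratios from 0.612 to 0.736 and blocked adjusted p from 0.0212 to 0.0419. Without the block their adjusted p ran from 0.138 to 0.726. They did not form 1 cluster, since the 8 lay in 7 of the 13 runs and the 5 in 4 of them. Over all members 163 (25.2%) were higher in the TcMAC21 pup in all 4 pairs and 72 (11.1%) lower, against 17.1% and 17.4% of all mouse genes. The median difference over members was positive in each pair, at 0.05, 0.06, 0.08 and 0.09 in pairs 1 to 4, against 0.01, -0.02, 0.01 and -0.00106 over mouse genes. The standard deviation over members was 0.39 to 0.40 in pairs 1 to 3 and 0.60 in pair 4. In pair 4 the Y-linked genes summed to 2719 in the TcMAC21 pup and to 7.15 in the euploid animal. That TcMAC21 pup also had the fewest reads of its cross, 7704334. The part of sex and depth in the paired results was not tested.

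The largest rise with the block was at position 441. Its normalized counts were 809.2, 762.7, 971.9 and 2040 in TcMAC21 replicates 1 to 4 and 574.7, 446.2, 629.4 and 962.7 in their euploid littermates. The means were thus 653.2 ± 220 (SD, n = 4) in euploid littermates and 1146 ± 603 (SD, n = 4) in TcMAC21. Its differences in pairs 1 to 4 were 0.49, 0.77, 0.63 and 1.08 on the log2 scale. The groups overlapped in spite of this, because both animals of a pair were high or low together. As a description, in Ts65Dn the 8 had ratios from 1.07 to 1.32 and the 5 from 0.503 to 0.767. The sign was shared in the same way by 132 of the 133 mouse genes called with the block (99.2%). Called or not, it was shared by 490 of 647 members (75.7%) and by 9569 of 13336 mouse genes (71.8%).

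**Figure D4:**
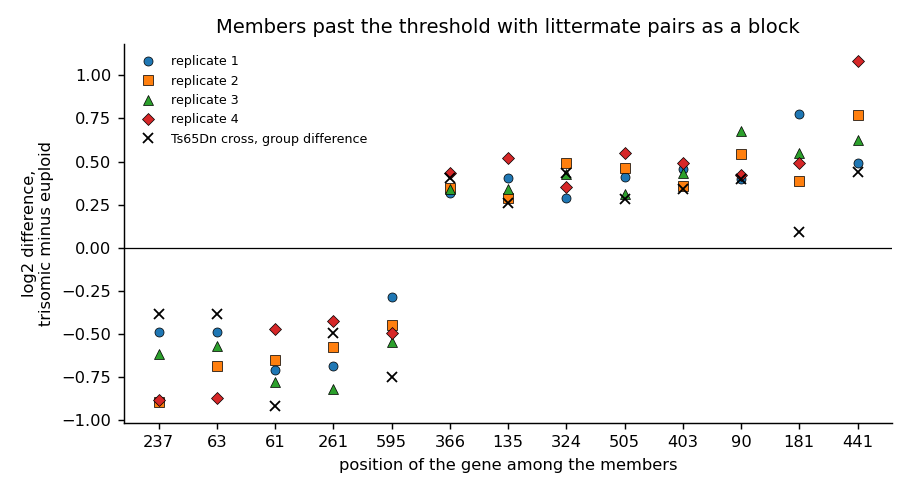
The 13 members with a blocked adjusted p under 0.05 in TcMAC21, each named by its position among the 650 and ordered by its mean difference. Coloured points are the log2 differences, TcMAC21 minus the euploid animal with the same replicate number, in the 4 pairs, and crosses are the group differences in the Ts65Dn cross. All 4 points of a gene lie on one side of 0.

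For the gene chr17.216038, at position 90, the normalized counts were 2751, 2498, 3391 and 2835 in TcMAC21 replicates 1 to 4 and 2083, 1714, 2123 and 2113 in their euploid littermates. Every TcMAC21 pup was above every euploid littermate. The log2 difference was 0.51 (standard error 0.13, adjusted p = 0.273 by limma), and with the pair as a block its adjusted p by limma was 0.0204. DESeq2 gave an adjusted p of 0.0325. In the Ts65Dn cross the counts were 2646, 3013, 3626 and 3382 in Ts65Dn and 3501, 2317, 2060 and 1942 in euploid littermates. All Ts65Dn pups were above 3 of the 4 euploid animals, and euploid replicate 1 lay within their range.

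For the gene chr17.218842, at position 237, the normalized counts were 339.2, 256.3, 274.2 and 211.3 in TcMAC21 and 476.6, 477.6, 420.5 and 391.4 in euploid littermates, again without overlap. The log2 difference was -0.72 (standard error 0.16, adjusted p = 0.138 by limma). It was the lowest adjusted p of the members, and with the pair as a block it was 0.0212 by limma. DESeq2 gave an adjusted p of 0.00911. In the Ts65Dn cross the ratio was 0.767, and the groups overlapped (270.6 to 377.7 in Ts65Dn, 349.5 to 475.2 in euploid littermates). The gene was lower than the euploid mean in each of the 8 trisomic pups of the 2 crosses.

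The Ts65Dn contrast helped to choose the members, so the following counts are no test of them, and nothing is read from them. limma called 0 of the 650 (and 0% of all mouse genes), with 58 members higher (8.92%) and 41 lower (6.31%) at an unadjusted p under 0.05, beside 7.72% and 9.33% of mouse genes. edgeR called 0, with 99 (15.2%) at an unadjusted p under 0.05, beside 17.5% of mouse genes. DESeq2 called 11 members, 8 higher and 3 lower, beside 2.36% of mouse genes, and left the adjusted p of 50 members empty. Without Ts65Dn euploid replicate 1, limma called 183 of 648 members (28.2%), 117 higher and 66 lower, beside 27.8% of mouse genes. Every Ts65Dn pup was above every euploid littermate for 37 members (5.69%) and below for 11 (1.69%), beside 4.52% and 4.23% of mouse genes. With quantile normalization these counts were 34 (5.23%) and 17 (2.62%), beside 4.32% and 4.37%. Both crosses separated the groups in the same direction for 0 members, beside 0.12% of mouse genes in the higher direction and 0.105% in the lower.

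The members that differed most in Ts65Dn were of low level. A ratio above 1.7 was found for 14 of 650 members, up to 2.60, beside 0.886% of mouse genes. Of the 14, 13 had a mean normalized count under 100, and 7 separated the groups, beside 49.6% of the mouse genes with such a ratio. A ratio under 0.588 was found for 16 members, down to 0.476, beside 1.40% of mouse genes. Of the 16, 12 were under 100 and 2 separated the groups, beside 26.1% of the mouse genes with such a ratio. In TcMAC21 there were 10 of 647 members above 1.7, beside 0.857% of mouse genes, and 4 under 0.588, beside 0.321%. The groups were apart for 0 of these members, beside 13% and 34.9% of the mouse genes with such ratios.

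The gene chr17.218958, at position 243, ranked first of the members that were higher in Ts65Dn in the limma fit. The rank only chose it for display and is no test. Its normalized counts were 3831, 3610, 5128 and 3815 in Ts65Dn replicates 1 to 4 and 2559, 2925, 2387 and 2154 in euploid littermates, a ratio of 1.63. The groups did not overlap. In the TcMAC21 cross it was at 3849, 4741, 4837 and 2237 in TcMAC21 and at 3921, 4323, 3911 and 2715 in euploid littermates, with a ratio of 1.05 and overlapping groups. The 4 Ts65Dn euploid animals had a mean of 2506 ± 325 (SD, n = 4), the 4 TcMAC21 euploid animals one of 3718 ± 695 (SD, n = 4), and the Ts65Dn pups one of 4096 ± 695 (SD, n = 4). The ranges of the euploid groups overlapped (2154 to 2925 and 2715 to 4323), and the gene was chosen by a contrast that includes the Ts65Dn euploid values.

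The gene chr17.230147, at position 631, ranked first of those that were lower, and was chosen in the same way. Its normalized counts were 280.4, 313.0, 327.7 and 271.2 in Ts65Dn and 389.0, 422.7, 495.1 and 438.7 in euploid littermates, a ratio of 0.683 without overlap. In the TcMAC21 cross the means were 312.4 ± 62.0 (SD, n = 4) and 324.1 ± 93.5 (SD, n = 4), a ratio of 0.964. The ranges of the euploid groups overlapped here as well (389.0 to 495.1 in the Ts65Dn cross and 217.1 to 438.9 in the TcMAC21 cross).

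**Figure D5:**
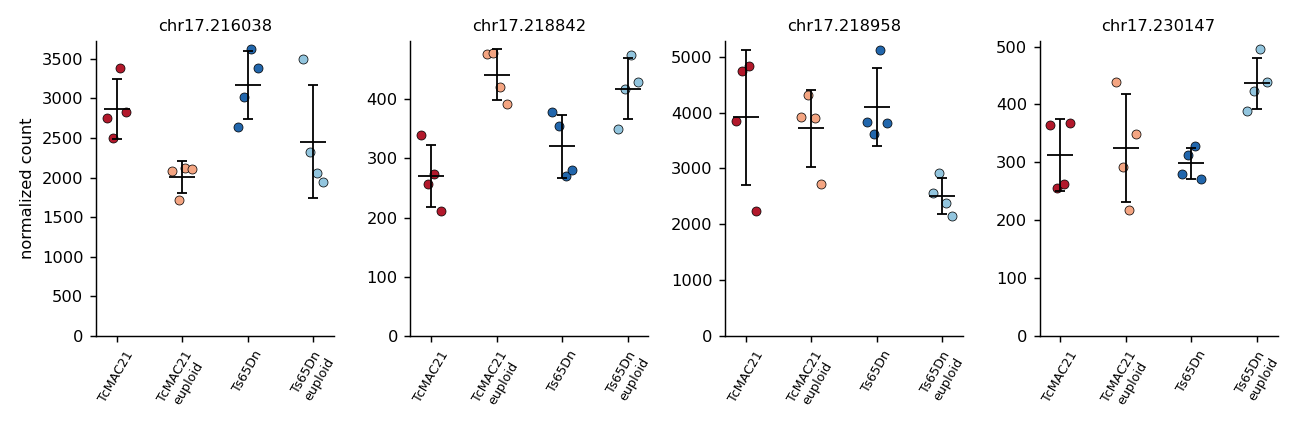
Normalized counts of 4 members in the 16 animals. Points are animals, the horizontal marks are group means and the error bars are SD (n = 4). chr17.216038 and chr17.218842 were apart between TcMAC21 and its euploid littermates, and chr17.218958 and chr17.230147 between Ts65Dn and its euploid littermates.

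The euploid littermates of the crosses differ in strain background, with C3H/HeJ in one and DBA/2J in the other, and in litter and dam, which cannot be told apart. Set against each other, 646 members reached a mean of 10 in the 8 euploid animals. The median difference, Ts65Dn euploid minus TcMAC21 euploid, was 0.05, against -0.01 over the 13395 mouse genes tested, and the SD between animals was 0.075. It was 0.0031 without Ts65Dn euploid replicate 1, 0.03 without TcMAC21 euploid replicate 1, 0.02 without TcMAC21 euploid replicate 2 and 0.09 without TcMAC21 euploid replicate 4. The groups did not overlap for 63 members, 41 higher in the Ts65Dn euploid animals (6.35%) and 22 lower (3.41%), beside 5.17% and 4.67% of all mouse genes. The count was 117 (18.1%) without Ts65Dn euploid replicate 1, beside 20% of mouse genes, and 138 (21.4%) without TcMAC21 euploid replicate 4, beside 22.7%. Among these 646 members, 11 had a ratio above 1.7, beside 1.55% of mouse genes. Over all 650 the number was 12. The 650 were admitted by their mean in the Ts65Dn cross, so a member low in the TcMAC21 euploid animals could enter with a high ratio. A ratio under 0.588 was found for 11 of the 650, beside 1.25% of mouse genes. The groups were apart for 6 of the 12 high ones and 3 of the 11 low ones, beside 49.5% and 55.1% of the mouse genes with such ratios. The largest of these ratios was 3.97 and the smallest 0.326, wider than the range of the members between trisomic and euploid animals within either cross (0.476 to 2.60 in Ts65Dn and 0.554 to 2.30 in TcMAC21).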

How the data were processed

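Cerebellar poly(A) libraries of 16 pups in 4 groups were analysed. The authors mapped reads with STAR 2.4.2a to mm39 with human chromosome 21 appended and built gene models from the samples jointly with PsiCLASS. The deposited signal is a normalized count, the reads of a gene scaled by the library's DESeq2 size factor. How genes were selected is not given in the sources used here, nor whether counting used strand.

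Each cross was fitted alone with limma 3.58.1 (lmFit, eBayes with trend) on log2(normalized count + 1), over all genes, human ones included, with a mean of at least 10 in its 8 animals and Benjamini-Hochberg adjustment. A difference on this scale understates the change of low genes. Alternatives were edgeR 4.0.16 and DESeq2 1.42.0 on recovered reads in R 4.3.3, leaving out each animal, a block for the replicate number, a joint fit of the 16 animals, quantile normalization, a pseudocount of 0.1, and a minimum mean of 50 or none. Shares of all mouse genes stand beside counts of members. Steps were tested on simulated data. Plots used Python 3.11.15 and matplotlib 3.10.9.

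Deviations of same-numbered TcMAC21 and euploid animals correlated over mouse genes by 0.491, 0.502, 0.197 and 0.50. The numbers were therefore taken as pairs, which the labels do not state. In the Ts65Dn cross these were -0.451, -0.135, -0.354 and -0.224, so there the numbers were not taken as pairs. Whether they pair littermates in that cross is not known from the labels. p-values measure the spread between animals that share litters. No libraries were identical.

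The members, tests and runs were chosen with earlier results of these data known. The named genes are, in each cross, the member with the smallest unadjusted limma p in each direction, and other members are given by position, because identifiers carry no symbols. Position 441, the first members and chromosomes 7, 11 and X were chosen after their values were seen.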

Additional observations from a re-analysis of the deposited data

Results flagged for a closer look

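In 4 of 72 sets of 4 animals (runs, the whole set and the named genes in each group), 1 animal lay far from the other 3 by Dixon's test, where chance gives about 1 in 20. Over positions 201 to 250, TcMAC21 replicate 3 had a geometric mean of 1.058, against 1.02 to 1.03 in the other TcMAC21 pups. Over positions 351 to 400, TcMAC21 replicate 2 had 0.9799, against 1.03 to 1.04. chr17.216038 had a normalized count of 1714 in TcMAC21 euploid replicate 2, against 2083 to 2123 in the other euploid littermates. chr17.218958 had a normalized count of 5128 in Ts65Dn replicate 3, against 3610 to 3831 in the other Ts65Dn pups.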

How the results depend on the processing

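The median differences over the members kept their sign under all alternatives run and moved by less than the SD between animals. With each animal left out in turn they were 0.0353 to 0.0905 in TcMAC21, 0.0642 to 0.1301 in Ts65Dn and 0.0031 to 0.0923 between the euploid groups. The number of members called in TcMAC21 was 0, and became 2 with DESeq2 and 13 with the pair as a block. It was 1 with all 16 animals in one fit and 0 to 1 with an animal left out, the 1 without TcMAC21 replicate 2. For these last fits the share of all mouse genes called is not given here, so nothing is read from their counts. In Ts65Dn the counts are no test, because that contrast helped to choose the members. The number called there was 0, and 0 with the replicate block, 11 with DESeq2, and 0 to 183 with an animal left out, the 183 without Ts65Dn euploid replicate 1. The members whose groups did not overlap numbered 30 to 82 in TcMAC21 with an animal left out (28 with all), 51 to 255 in Ts65Dn (48 with all) and 67 to 138 between the euploid groups (63 with all), and a group of 3 animals separates more easily than one of 4 by construction. In TcMAC21 the count was 82 without euploid replicate 4 (12.7% of members, beside 10.8% of mouse genes), 68 without TcMAC21 replicate 2 (10.5%, beside 10.3%), 61 without TcMAC21 replicate 4 (9.43%, beside 8.32%), 57 without euploid replicate 1 (8.81%, beside 8.78%), 47 without euploid replicate 3 (7.26%, beside 7.06%) and 46 without TcMAC21 replicate 1 (7.11%, beside 7.28%). In Ts65Dn it was 255 without euploid replicate 1 (39.2%, beside 38.9%) and 94 without Ts65Dn replicate 1 (14.5%, beside 18.8%). The replicate block changed no call in Ts65Dn. Across the animals left out, the adjusted p by limma was 0.223 to 0.908 for chr17.216038 and 0.0614 to 0.50 for chr17.218842, and all 16 animals in one fit gave 0.648 for chr17.216038 and 0.039 for chr17.218842. The cause of these changes was not tested. Members of low level are limited by depth, and the symbols, positions and lengths of the members were not analysed here.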
